A study of Mus musculus with 24 samples.

Results

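A set of 9 transcription factors that carry interferon signals, 8 interferon regulatory factors (Irf1, Irf2, Irf3, Irf4, Irf5, Irf7, Irf8 and Irf9) and Stat2, were followed across splenic T cells of mice with or without a transplanted B-cell lymphoma. They were chosen by name, as 9 of the 34113 genes in the deposited table, and all 9 passed the filter on low counts in every fit. The cells came from C57BL/6N mice whose Atm gene, which encodes a kinase of the DNA break response, was disrupted on both copies (Atm-/-, KO) or intact (Atmwt/wt, WT). The 8 groups of 3 libraries were KO lymphoma, WT lymphoma, KO control and WT control, each as CD8 and as CD4 cells. Control mice had received no transplant. The CD8 and CD4 libraries came from the same 12 pools, 22 mice in all, with 1 mouse behind each WT lymphoma library and 2 or 3 behind each of the others. The sources used here do not give the mice's ages or how CD4 and CD8 cells were parted.

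An interferon made outside a cell binds its receptor, whose Janus kinases phosphorylate STAT proteins. Stat2 and Irf9 are subunits of ISGF3, the complex that switches on antiviral genes through interferon-stimulated response elements, and Irf7 is itself one of those genes. Irf3, Irf5 and Irf7 act one step earlier, where sensors of foreign nucleic acid start interferon production. Irf1 is an activator and Irf2 largely a repressor of overlapping gene sets, while Irf4 and Irf8 direct lymphocyte and myeloid differentiation.

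Libraries held 6470482 to 10196062 counts, and 15263 to 17707 genes had a count. Levels are given as CPM, counts scaled to the library's total, and differences as log2 fold changes ± standard error. Rose and fell are used for an adjusted p under 0.05 over all genes tested, in edgeR's quasi-likelihood test with Benjamini-Hochberg adjustment, with n = 3 libraries per group. Atm stood at 26.9 to 107 CPM in KO libraries and 117 to 210.4 CPM in WT libraries, with every KO library below every WT library of its co-receptor and condition. The 16 T cell markers summed to 1615 to 5954 CPM and none was at 0 in any group. Sums of 14 B cell markers (41.4 to 1316 CPM) and of 16 monocyte and macrophage markers (168 to 2797 CPM) differed widely between libraries, and they are given beside the results they move with. In RNA from whole populations, fewer cells of a type and less RNA per cell cannot be told apart. CD4 KO lymphoma library 3 had the lowest T cell marker sum of the CD4 libraries, 2464 CPM, and CD8 KO lymphoma library 1 the lowest of the CD8 libraries, 1615 CPM. That CD8 library also had the highest B cell marker sum of all, 1316 CPM.

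The promoters were read from RefSeq (GRCm38.p6), which held windows from 250 bases before to 50 after a start for all 9 genes, 12 windows in total. They were searched on both strands for the core of the interferon-stimulated response element (GAAA, any 2 bases, GAAA), and for TTCNNNGAA, the gamma-activated site bound by STAT dimers, whose pattern reads the same on both strands. The first was in 3.44% and the second in 8.30% of all 32851 windows in the table. Shown here are Irf7 and Irf8, the members that rose, Stat2, which has the response element core on its reverse strand, and Irf1, which has a gamma-activated site. Each run is written 5′ to 3′ on the gene's strand and ends before the annotated start, with the matches in capitals.

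Irf7: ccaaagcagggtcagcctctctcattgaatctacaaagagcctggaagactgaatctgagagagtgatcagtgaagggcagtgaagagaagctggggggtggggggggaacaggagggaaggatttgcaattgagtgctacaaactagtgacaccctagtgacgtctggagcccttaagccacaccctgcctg
Irf8: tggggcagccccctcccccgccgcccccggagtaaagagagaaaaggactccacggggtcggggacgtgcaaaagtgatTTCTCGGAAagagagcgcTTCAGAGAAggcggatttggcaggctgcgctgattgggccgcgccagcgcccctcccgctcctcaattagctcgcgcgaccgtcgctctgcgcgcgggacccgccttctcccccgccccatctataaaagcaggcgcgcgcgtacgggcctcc
Stat2: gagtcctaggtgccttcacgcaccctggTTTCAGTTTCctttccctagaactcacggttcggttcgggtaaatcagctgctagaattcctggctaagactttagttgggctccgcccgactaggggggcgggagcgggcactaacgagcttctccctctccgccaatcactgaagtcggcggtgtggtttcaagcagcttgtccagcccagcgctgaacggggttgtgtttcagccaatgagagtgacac
Irf1: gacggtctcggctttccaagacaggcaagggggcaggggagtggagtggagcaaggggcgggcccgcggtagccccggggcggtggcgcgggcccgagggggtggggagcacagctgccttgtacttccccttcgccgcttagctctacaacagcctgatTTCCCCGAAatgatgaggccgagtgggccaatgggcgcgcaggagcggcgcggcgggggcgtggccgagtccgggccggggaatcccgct

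These lie at chr7:141266482-141266674 (minus strand, Irf7), chr8:120736108-120736357 (plus strand, Irf8), chr10:128270248-128270497 (plus strand, Stat2) and chr11:53769764-53770013 (plus strand, Irf1) of GRCm38. The match in Stat2 was TTTCAGTTTC at -222 to -213 from the RefSeq start and that in Irf1 was TTCCCCGAA at -90 to -82. Irf8 had 2 gamma-activated sites, TTCTCGGAA at -171 to -163 and TTCAGAGAA at -153 to -145. Irf2 held both patterns, GAAAATGAAA at -241 to -232 and TTCCGAGAA at -224 to -216. These letters were not in the windows of Irf3, Irf4, Irf5, Irf7 and Irf9. A match is a description of the sequence and was not set against binding.

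Irf7, the factor that amplifies type I interferon production, rose with lymphoma in WT cells of both co-receptors and in KO CD8 cells. It is annotated at chr7:141262706-141266481 of GRCm38. In CD8 cells it was at 91.9, 103 and 161 CPM in WT lymphoma libraries, against 40.3, 33.3 and 28.1 CPM in WT controls. In CD4 cells it was at 85.5, 108 and 137 CPM in WT lymphoma libraries, against 39.7, 34.7 and 30.6 CPM in WT controls. All WT lymphoma libraries were above all WT controls, and the difference was 1.81 ± 0.26 (adjusted p = 0.00949) in CD8 and 1.59 ± 0.27 (adjusted p = 0.0131) in CD4 cells, a fold of 3.52 and 3.00.

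In KO mice Irf7 was at 126, 151 and 95.3 CPM in CD8 lymphoma libraries, against 73.2, 46.0 and 43.4 CPM in CD8 controls, and rose by 1.20 ± 0.26 (adjusted p = 0.0482). In CD4 KO cells it was at 126, 153 and 76.0 CPM with lymphoma, against 48.6, 56.7 and 48.4 CPM in controls. The libraries did not overlap there either, yet the difference of 1.21 ± 0.26 did not pass (adjusted p = 0.116, 95% interval 0.64 to 1.78). Across both genotypes and co-receptors, Irf7 was at 76.0 CPM or more in each of the 12 lymphoma libraries and at 73.2 CPM or less in each of the 12 controls. The KO response minus the WT response was -0.61 ± 0.36 in CD8 cells (interval -1.41 to 0.18) and -0.38 ± 0.37 in CD4 cells (interval -1.18 to 0.42), and neither passed.

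**Figure D1:**
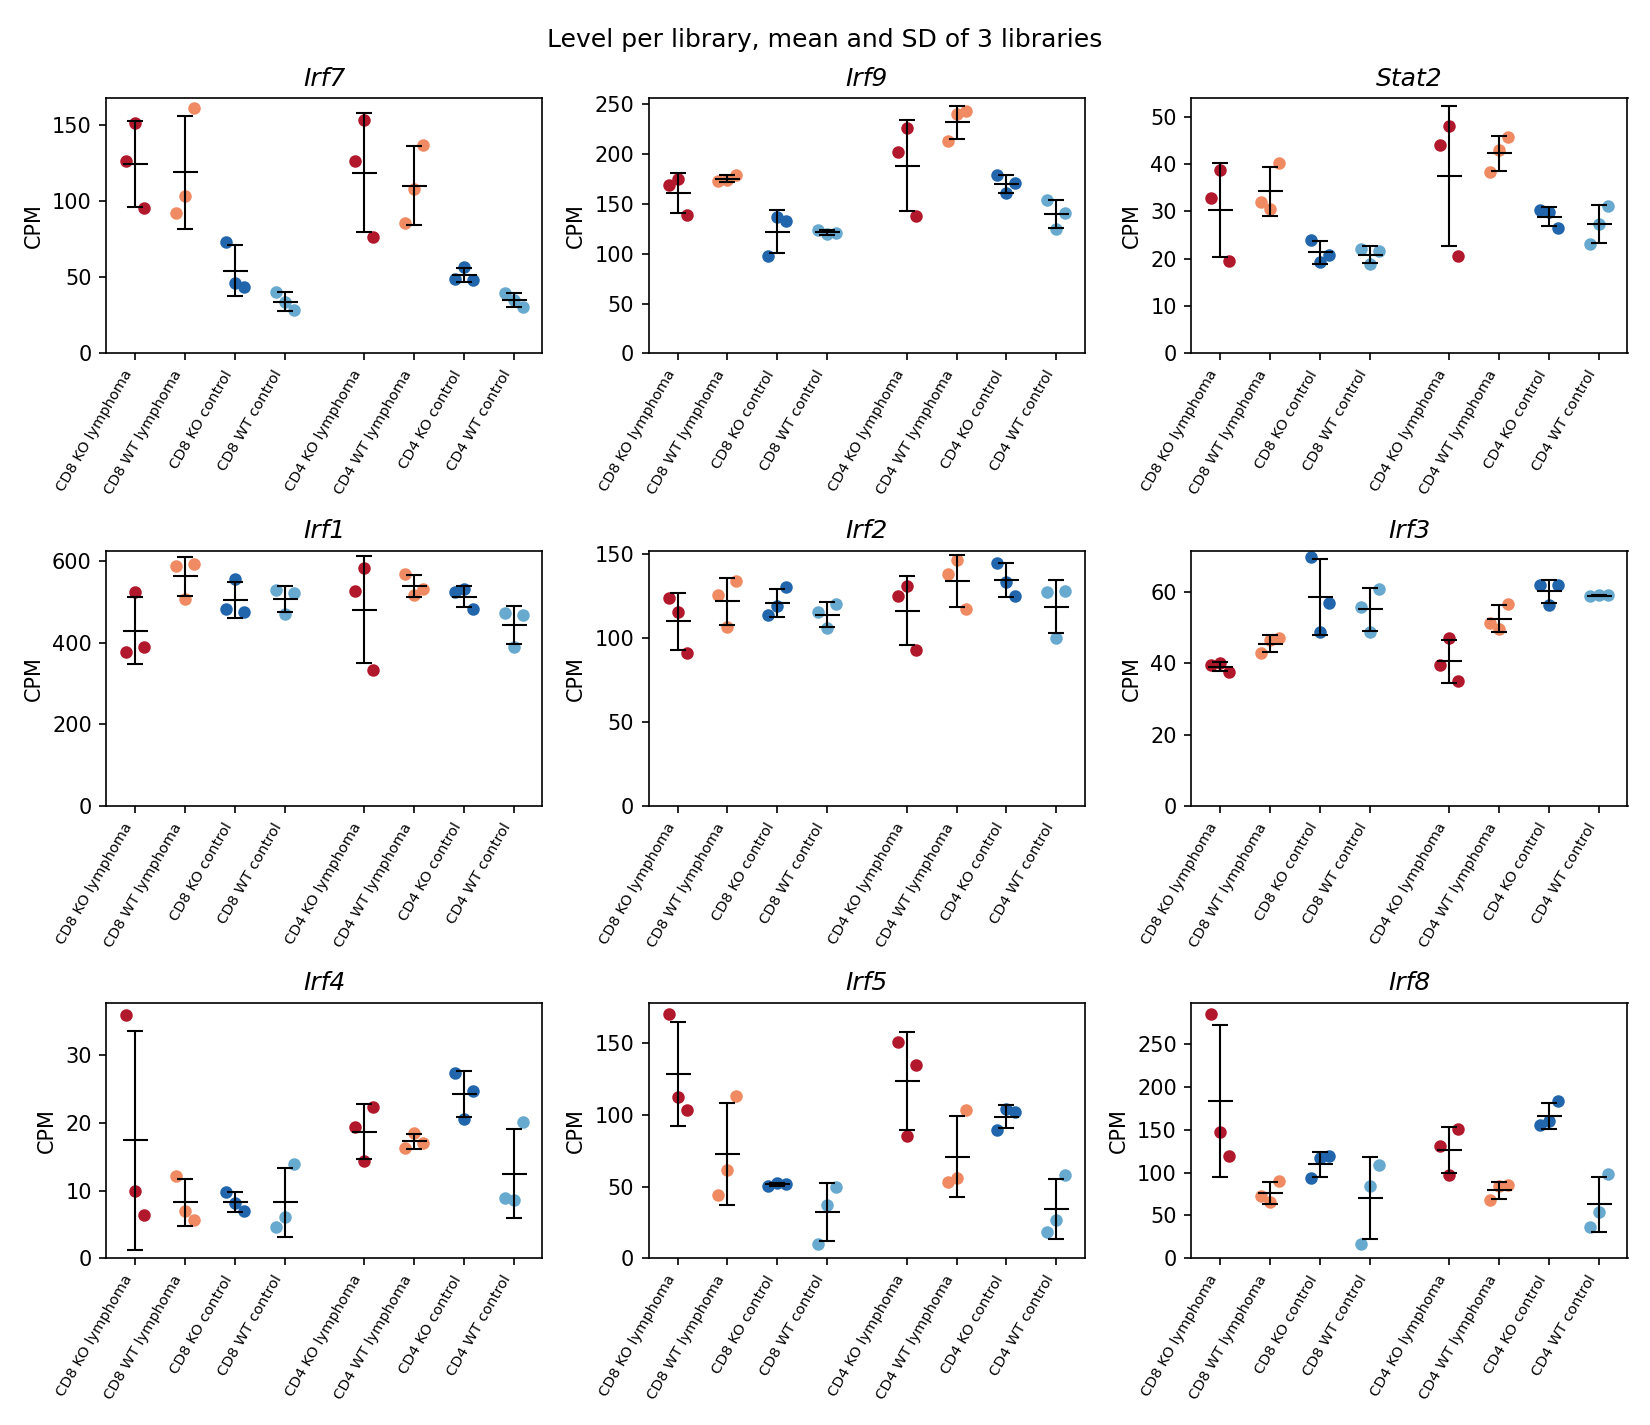
Level of each of the 9 genes in CPM (vertical axes) in every library, by group along the horizontal axes; each point is 1 library, and the black marks give the mean and SD of 3. Irf7 separates lymphoma libraries (76.0 CPM or more) from controls (73.2 CPM or less), while Irf2 stays within 90.9 to 147 CPM in all groups.

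The Irf7 calls lay close to the threshold. With 1 library left out at a time, the adjusted p of the CD4 WT difference ran from 0.0108 to 0.0615. The call was lost without WT control 1 (0.0606), 2 (0.0560) or 3 (0.0545), or without WT lymphoma 3 (0.0615). The CD8 WT difference lost its call without WT control 3 (0.0592). The CD8 KO difference kept it only without KO lymphoma 2 (0.0377) and otherwise had 0.0576 to 0.155. In CD4 KO cells, by contrast, Irf7 passed without KO lymphoma 2 (0.93 ± 0.23, adjusted p = 0.0498) or without KO lymphoma 3 (1.45 ± 0.19, adjusted p = 0.0183).

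Irf9, the DNA-contacting subunit of ISGF3, was higher in every WT lymphoma library than in every WT control of the same co-receptor, though no difference passed the adjusted threshold. It lies at chr14:55603571-55610030. In CD8 WT cells it was at 173, 174 and 179 CPM with lymphoma, against 124, 119.6 and 121 CPM in controls (0.54 ± 0.14, adjusted p = 0.0662, interval 0.25 to 0.84). In CD4 WT cells it was at 213, 240.5 and 243.3 CPM with lymphoma, against 154, 125 and 140.5 CPM in controls (0.67 ± 0.18, adjusted p = 0.0916, interval 0.27 to 1.07). DESeq2 called both, with adjusted p = 0.00957 and 0.0156.

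In KO cells Irf9 differed less by point estimate. It was at 169, 175 and 139 CPM in CD8 KO lymphoma libraries, against 97.4, 137 and 133 CPM in CD8 KO controls (0.39 ± 0.14, adjusted p = 0.101), without overlap. It was at 202, 226 and 138 CPM in CD4 KO lymphoma libraries, against 179, 161 and 171 CPM in controls (0.14 ± 0.18, adjusted p = 0.746), and the groups overlapped through KO lymphoma library 3. The KO response minus the WT response was -0.53 ± 0.26 in CD4 cells (interval -1.09 to 0.04) and did not pass.

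Stat2, the subunit that brings the activation domain to ISGF3, followed Irf9. It lies at chr10:128270559-128292849. It was at 32.1, 30.4 and 40.2 CPM in CD8 WT lymphoma libraries, against 22.1, 18.8 and 21.6 CPM in CD8 WT controls (0.73 ± 0.21, adjusted p = 0.0996). It was at 38.3, 42.9 and 45.7 CPM in CD4 WT lymphoma libraries, against 23.2, 27.4 and 31.2 CPM in CD4 WT controls (0.58 ± 0.27, adjusted p = 0.336). Neither pair of groups overlapped.

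With Atm disrupted, Stat2 was at 32.8, 38.7 and 19.5 CPM in CD8 lymphoma libraries, against 24.0, 19.3 and 20.8 CPM in CD8 controls (0.51 ± 0.21, adjusted p = 0.152). In CD4 KO cells it was at 44.0, 47.96 and 20.6 CPM with lymphoma, against 30.3, 29.9 and 26.5 CPM in controls (0.38 ± 0.27, adjusted p = 0.525). In both co-receptors 2 of the 3 KO lymphoma libraries were above all KO controls and library 3 was below 2 or more of them.

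Irf3, the constitutive factor that sensors activate by phosphorylation, went the other way. It lies at chr7:44997648-45002848. In CD8 KO cells it was at 39.5, 40.0 and 37.6 CPM with lymphoma, against 69.9, 48.9 and 56.9 CPM in controls, and it fell by 0.59 on the log2 scale (-0.59 ± 0.13, adjusted p = 0.0486). In CD4 KO cells it was at 39.4, 47.1 and 35.1 CPM with lymphoma, against 61.9, 56.5 and 62.1 CPM in controls, a difference of -0.58 ± 0.15 that did not pass (adjusted p = 0.159). In both, all lymphoma libraries were below all controls.

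WT cells had the smaller estimates. Irf3 was at 42.8, 46.6 and 47.1 CPM in CD8 WT lymphoma libraries, against 55.9, 48.8 and 60.9 CPM in CD8 WT controls (-0.26 ± 0.13, adjusted p = 0.323). In CD4 WT cells it was at 51.4, 49.5 and 56.6 CPM with lymphoma, against 58.8, 59.2 and 59.0 CPM in controls (-0.23 ± 0.15, adjusted p = 0.491). The groups again did not overlap, and Irf3 was lower with lymphoma in all 4 comparisons, of which 1 passed. The CD8 and CD4 libraries share their mice, so these comparisons are not independent of one another. Of all genes, 18.9% (CD4 KO) to 29.1% (CD8 WT) did not overlap, in either direction. The CD8 KO call was held when KO lymphoma 2 was left out (adjusted p = 0.0178) and was lost without any other of the 6 libraries (0.0672 to 0.155). The difference between the KO and the WT response was -0.33 ± 0.18 in CD8 and -0.35 ± 0.21 in CD4 cells, and neither passed. T cell markers were also lower in these comparisons. Their sum was 1615 to 3220 CPM in CD8 KO lymphoma libraries and 3924 to 4227 CPM in CD8 KO controls, and 3 of 16 fell there in edgeR (Cd3e, Cd2 and Cd247), while DESeq2 called 14 of 16 lower. Their part in the Irf3 difference was not tested.

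Irf1, an activator downstream of interferon gamma, and Irf2, its antagonist, moved little. Irf1 (chr11:53770014-53778374) ran from 334 to 592 CPM over all libraries and Irf2 (chr8:46739732-46847458) from 90.9 to 147 CPM, and neither passed in any comparison. The largest lymphoma estimate for Irf1 was -0.23 ± 0.14 in CD8 KO and for Irf2 was -0.22 ± 0.16 in CD4 KO cells. Irf1 was higher without overlap in CD4 WT lymphoma libraries (569, 516 and 531 CPM) than in CD4 WT controls (473, 389 and 467 CPM). CD4 KO controls (523, 532 and 483 CPM) were also above those WT controls without overlap. Irf1 was at 376, 525 and 388 CPM in CD8 KO lymphoma libraries, against 588, 508 and 592 CPM in CD8 WT lymphoma libraries (-0.37 ± 0.14, adjusted p = 0.192). Without KO lymphoma 2, the 1 of the 3 within the WT range, that difference was -0.58 ± 0.11 and passed (adjusted p = 0.0146).

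Counted over the 9 genes, 1 rose in CD8 WT cells with lymphoma (1.42% of 12650 genes passed in either direction) and 1 in CD4 WT cells (1.69% of 12808 genes). In CD8 KO cells 1 rose and 1 fell (2.18% of all genes). For CD4 KO cells 0 passed, as did 0 genes of the whole table in edgeR (0%), with 2 of the 9 at an unadjusted p under 0.05 and 2 called by DESeq2 (Irf7 higher and Irf3 lower). Members whose libraries did not overlap numbered 4 in CD8 WT (29.1% of all genes), 5 in CD4 WT (25.1%), 4 in CD8 KO (27.7%) and 3 in CD4 KO cells (18.9%). The median difference of the 9 was 0.17 in CD8 WT, 0.44 in CD4 WT, 0.51 in CD8 KO and -0.09 in CD4 KO cells, beside medians of -0.01, -0.01, -0.02 and -0.01 over all genes.

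**Figure D2:**
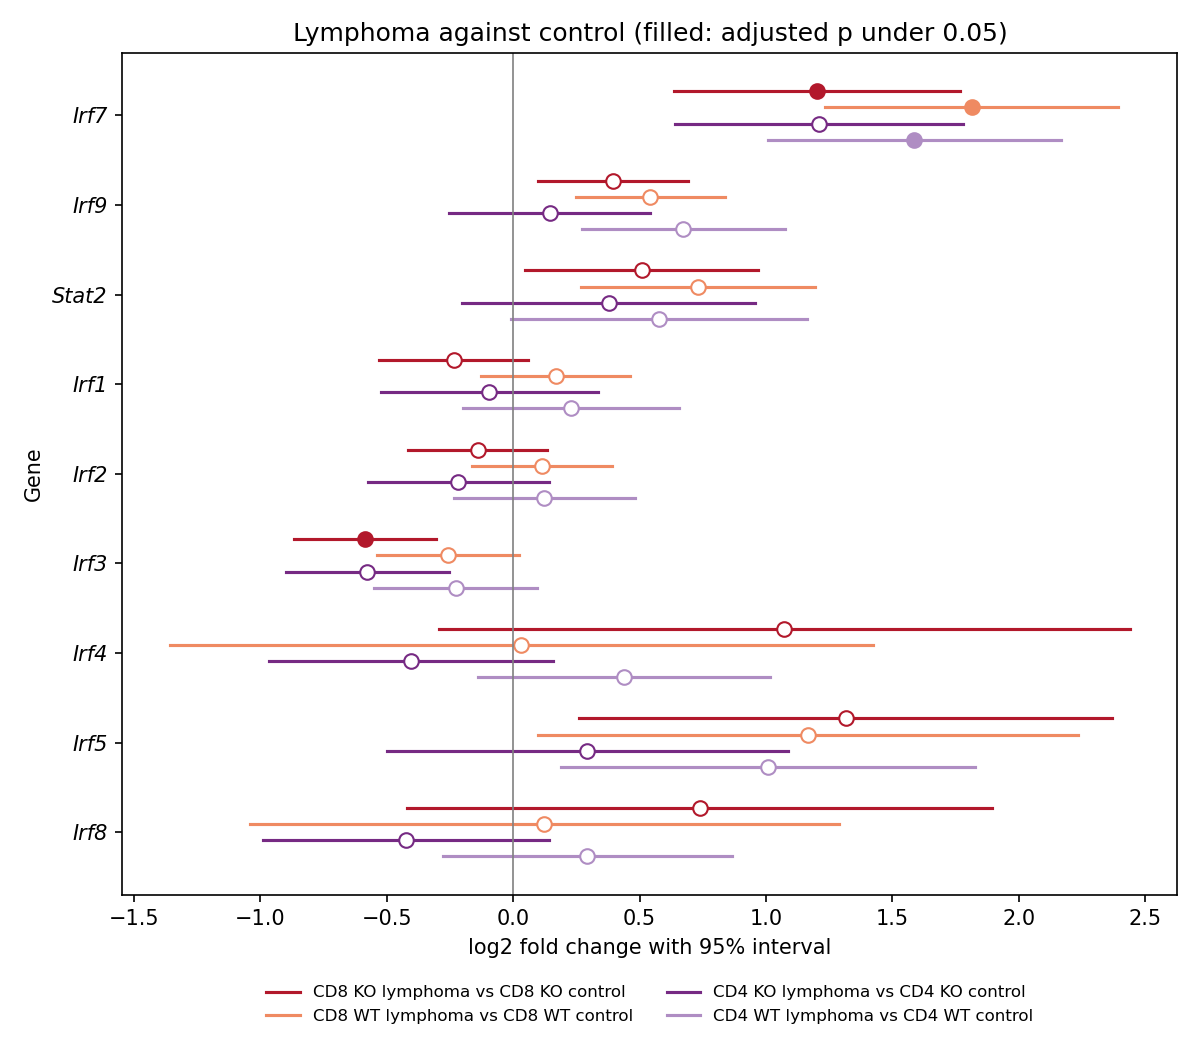
Log2 fold change of lymphoma against control for each gene (horizontal axis, line at 0), with 3 libraries a group. The 95% intervals are from the edgeR fit of the 12 libraries of each co-receptor. Filled points passed an adjusted p of 0.05. Irf7 was positive in all 4 comparisons (1.20 to 1.81) and Irf3 negative in all 4 (-0.59 to -0.23).

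Markers of other cells and of T cells moved with the Irf7 and ISGF3 differences. Monocyte and macrophage markers summed to 1016 to 1949 CPM in CD8 WT lymphoma libraries and 168 to 948 CPM in CD8 WT controls. In CD4 WT cells their sum was 1099 to 1762 CPM with lymphoma and 464 to 824 CPM in controls, and 3 of 16 rose and 1 fell. In CD8 KO cells the sum was 1967 to 2659 CPM with lymphoma and 1062 to 1136 CPM in controls, and in CD4 KO cells 1922 to 2797 CPM and 1315 to 1691 CPM. T cell markers, 16 in all, summed lower in every lymphoma library than in every control of its comparison. Their sums were 3208 to 4038 CPM in CD8 WT lymphoma libraries against 4481 to 5123 CPM in controls, and 3998 to 5032 CPM in CD4 WT lymphoma libraries against 5202 to 5954 CPM in controls. The summed level of Uty, Ddx3y and Eif2s3y, all Y-linked, overlapped between lymphoma and control libraries in all 4 comparisons. It was 4.80, 1.88 and 117 CPM in CD4 WT lymphoma libraries and 68.1, 189 and 125 CPM in CD4 WT controls. In CD8 WT cells it was 4.72, 1.41 and 161 CPM with lymphoma and 54.7, 178 and 118 CPM in controls. WT lymphoma libraries 1 and 2 were thus below every WT control of their co-receptor. In CD4 KO cells the sum was 0.986 to 51.5 CPM with lymphoma and 1.25 to 57.7 CPM in controls. The part of these markers in the differences was not tested.

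The ISGF3 targets, 25 antiviral genes that this complex is known to bind, gave a wider view of the same pathway. With lymphoma 19 of 25 rose in CD8 WT cells (median 1.70), 19 in CD4 WT (1.62), 17 in CD8 KO (1.22) and 0 in CD4 KO cells (0.96), and none fell. The list was chosen with earlier results of these data known, so its count is not independent evidence. In CD8 WT cells Oas1a, an activator of RNase L, rose by 2.38 ± 0.20 to 29.6 ± 4.80 CPM with lymphoma, against 5.68 ± 1.28 CPM in controls. Rtp4 rose by 1.81 ± 0.16, Ifi27l2a by 1.71 ± 0.15 and Cmpk2, a mitochondrial nucleotide kinase, by 2.19 ± 0.22 in those cells. In CD4 WT cells Oasl2 rose by 2.85 ± 0.28, Oas1a by 2.08 ± 0.23, Cmpk2 by 2.48 ± 0.29 and Isg15, a ubiquitin-like protein, by 2.30 ± 0.29. In CD8 KO cells Oasl2 rose by 2.13 ± 0.30, Cmpk2 by 1.66 ± 0.21, Ifi27l2a by 1.30 ± 0.15 and Rtp4 by 1.22 ± 0.16.

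Among CD4 KO libraries 24 of the 25 targets had a positive estimate and 19 an unadjusted p under 0.05, and DESeq2 called 15. Without KO lymphoma 3 edgeR called 6 of 25 (median 1.12) and without KO lymphoma 2 it called 7. The CD8 KO count was 3 without KO lymphoma 1 and 0 to 2 without any 1 of the 3 controls. The WT counts were 9 to 18 in CD8 and 12 to 19 in CD4 cells with 1 library left out. Of the 17 targets with a RefSeq promoter window, 10 held the response element core and 5 the gamma-activated site, beside 3.99% and 9.55% of all 27025 genes.

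Other parts of the pathway passed less often by count. Of 21 genes induced through Irf1, 3 rose in CD8 WT cells (Iigp1 1.77 ± 0.31, Irgm2 0.95 ± 0.19 and Cxcl10 2.38 ± 0.49) and 5 in CD4 WT cells (Cxcl10 2.56 ± 0.33, Irgm1 0.92 ± 0.18, Gbp5 0.98 ± 0.19, Iigp1 1.39 ± 0.30 and Il15). Cxcl10, a chemokine that draws activated T cells, was the 1 that rose in CD8 KO cells (2.07 ± 0.47), and 0 passed in CD4 KO cells (3 at an unadjusted p under 0.05, 1 by DESeq2). With 1 library left out these counts were 0 to 3 in CD8 WT and 1 to 4 in CD4 WT cells. DESeq2 called 6 of the 21 in CD8 WT, 8 in CD4 WT and 2 in CD8 KO cells, all higher. Of 12 negative regulators, Usp18, the protease that removes Isg15 and blocks the interferon receptor, was the 1 that rose in CD8 WT (2.39 ± 0.18), CD4 WT (1.91 ± 0.27) and CD8 KO cells (0.94 ± 0.17). From these 12, DESeq2 called 1 higher in CD8 WT, 3 in CD4 WT, 3 in CD8 KO and 1 in CD4 KO cells.

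Among other IRF, STAT and IRF2-binding genes, Stat3, which signals from interleukin 6 family receptors, rose in CD4 WT cells (0.54 ± 0.12, adjusted p = 0.0484). Irf2bpl fell in CD8 KO cells (-0.65 ± 0.15, adjusted p = 0.0495). From these 10 genes DESeq2 called 2 higher in CD4 WT and 1 higher in CD8 WT cells, and 2 lower in CD8 KO cells. Of 8 interferon receptor chains and Janus kinases 0 passed in edgeR in any of the 4 lymphoma comparisons, with 1 to 4 at an unadjusted p under 0.05 and 2 called by DESeq2 in CD8 KO cells. Jak1, the kinase shared by interferon receptors, differed by -0.49 ± 0.14 in CD8 KO cells (adjusted p = 0.0648), and Ifngr1 by -0.29 ± 0.17. Of 12 sensor adaptors and kinases upstream of Irf3, Irf5 and Irf7, 0 passed in edgeR, with 0 to 3 at an unadjusted p under 0.05, and DESeq2 called 1 in CD8 WT and 3 in CD8 KO cells. Tmem173, which encodes STING, differed by -0.16 ± 0.12 and Irak1 by 0.00 ± 0.11 in CD8 KO cells.

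Interferon genes themselves were hardly counted. The 11 type I and type III genes looked for had 7 counts over all 24 libraries, 6 of Ifnz and 1 of Ifnb1. Ifng, the type II interferon made by T cells, had 1044 counts and was found in 23 of 24 libraries. In CD8 cells it was at 5.25 ± 0.598 CPM in WT lymphoma libraries, against 1.70 ± 1.82 CPM in WT controls, and did not pass. It rose in CD4 KO controls, at 6.56 ± 1.99 CPM, against 2.11 ± 0.125 CPM in CD4 WT controls (1.56 ± 0.33, adjusted p = 0.0399). In CD8 controls the sum of all interferon genes looked for, nearly all of it Ifng, did not overlap either. That sum was 4.76 to 6.96 CPM in CD8 KO and 0 to 3.62 CPM in CD8 WT controls, and DESeq2 did not call Ifng there.

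Without lymphoma, Irf8, which drives macrophage and dendritic cell fate and acts in B cells, rose in CD4 cells lacking Atm. It lies at chr8:120736358-120756694. It was at 156, 160.0 and 184 CPM in CD4 KO controls, against 36.9, 53.6 and 98.1 CPM in CD4 WT controls, and the groups did not overlap (1.35 ± 0.27, adjusted p = 0.0320, fold 2.55). Irf5, a factor of Toll-like receptor signalling in myeloid and B cells, was at 89.3, 104 and 102 CPM in KO and 18.7, 26.5 and 58.3 CPM in WT controls (1.47 ± 0.37, adjusted p = 0.0686). DESeq2 called Irf5 there (adjusted p = 0.00308), as did edgeR with a replicate block (adjusted p = 0.0376). Irf4, which T cell receptor signals induce and plasma cells need, was at 27.4, 20.6 and 24.7 CPM in KO and 8.90, 8.56 and 20.1 CPM in WT controls (0.91 ± 0.26, adjusted p = 0.0979). Irf5 lies at chr6:29526625-29541871 and Irf4 at chr13:30749226-30766976.

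These 3 were the members with the largest estimates of genotype in CD4 controls. In that comparison 1 of the 9 genes passed (2.01% of all genes did) and 6 did not overlap, all higher in KO (32.7% of all genes did not overlap, in either direction). Irf7 was at 48.6, 56.7 and 48.4 CPM in CD4 KO controls, above the 39.7, 34.7 and 30.6 CPM of CD4 WT controls, and did not pass (0.47 ± 0.26, adjusted p = 0.363). Among ISGF3 targets 2 of 25 rose there, Oas1a (1.32 ± 0.23) and Oasl2 (1.25 ± 0.28). The median of the 9 genes was 0.21, beside -0.01 over all genes.

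The same comparison differed in markers of other cells and of T cells. T cell markers summed to 4382 to 4963 CPM in CD4 KO controls, below the 5202 to 5954 CPM of CD4 WT controls without overlap. B cell markers summed to 534, 631 and 714 CPM in CD4 KO controls, against 41.4, 74.3 and 507 CPM in CD4 WT controls. Monocyte and macrophage markers summed to 1315 to 1691 CPM in KO and 464 to 824 CPM in WT controls, and 9 of 16 rose. The B cell markers were positive in 14 of 14 with a median of 1.58; 6 had an unadjusted p under 0.05 and 0 passed in edgeR or DESeq2. WT control 3, the WT library with the highest B cell sum, also had the highest Irf4, Irf5 and Irf8 of its group. Without it Irf8 (1.76 ± 0.22, adjusted p = 0.00618), Irf5 (2.01 ± 0.34, 0.0180) and Irf4 (1.36 ± 0.20, 0.0101) all passed, and so did 14 of 14 B cell markers. Without any other of the 6 libraries Irf8 did not pass (1.07 to 1.40, adjusted p = 0.0722 to 0.171). Dendritic cell markers, 11 in all, summed to 83.5 to 104 CPM in KO and 69.3 to 105 CPM in WT controls, and 0 passed in edgeR, with 3 at an unadjusted p under 0.05 and 1 called by DESeq2. The Y-linked sum was 2.69, 1.25 and 57.7 CPM in CD4 KO controls, below the 68.1, 189 and 125 CPM of CD4 WT controls without overlap, while 0 of the 3 genes passed in edgeR or DESeq2 and 0 had an unadjusted p under 0.05. The part of these cells, or of what the Y-linked level marks, in the differences was not tested.

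In CD8 controls the Irf8 and Irf5 estimates were positive without passing, and the Irf4 estimate was near 0. Irf8 was at 93.3, 117 and 119 CPM in CD8 KO controls, against 17.2, 84.6 and 109 CPM in CD8 WT controls (0.67 ± 0.53, adjusted p = 0.574). Irf5 was at 50.4, 52.4 and 51.6 CPM in KO and 10.04, 37.1 and 50.001 CPM in WT controls (0.70 ± 0.48, adjusted p = 0.530). Irf4 was at 9.78, 8.24 and 6.96 CPM in KO and 4.66, 6.08 and 14.0 CPM in WT controls (0.05 ± 0.63, adjusted p = 0.980). Irf7 was at 73.2, 46.0 and 43.4 CPM in KO and 40.3, 33.3 and 28.1 CPM in WT controls (0.70 ± 0.26, adjusted p = 0.259). Irf5 and Irf7 did not overlap. In edgeR 0 of the 9 passed (0.522% of all genes), 1 had an unadjusted p under 0.05, and DESeq2 called 0. The 2 whose libraries did not overlap compare with 24.7% of all genes. Usp18 (1.29 ± 0.18) and Oas1a (1.59 ± 0.20) rose in these KO cells. Monocyte and macrophage markers summed to 1062 to 1136 CPM in CD8 KO controls and 168 to 948 CPM in CD8 WT controls, without overlap. In edgeR 0 of these 16 passed, 9 had an unadjusted p under 0.05 and DESeq2 called 2 higher. Dendritic cell markers differed the other way in their sum, 140.3 to 172 CPM in KO and 305 to 349 CPM in WT controls. In edgeR 0 of these 11 passed, 1 had an unadjusted p under 0.05, DESeq2 called 1 lower, and 6 had a positive difference. B cell sums overlapped, at 186 to 249 CPM in KO and 42.2 to 450.1 CPM in WT controls. T cell sums were lower in KO without overlap, at 3924 to 4227 CPM against 4481 to 5123 CPM in WT controls. The part of these cells in the CD8 differences was not tested.

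**Figure D3:**
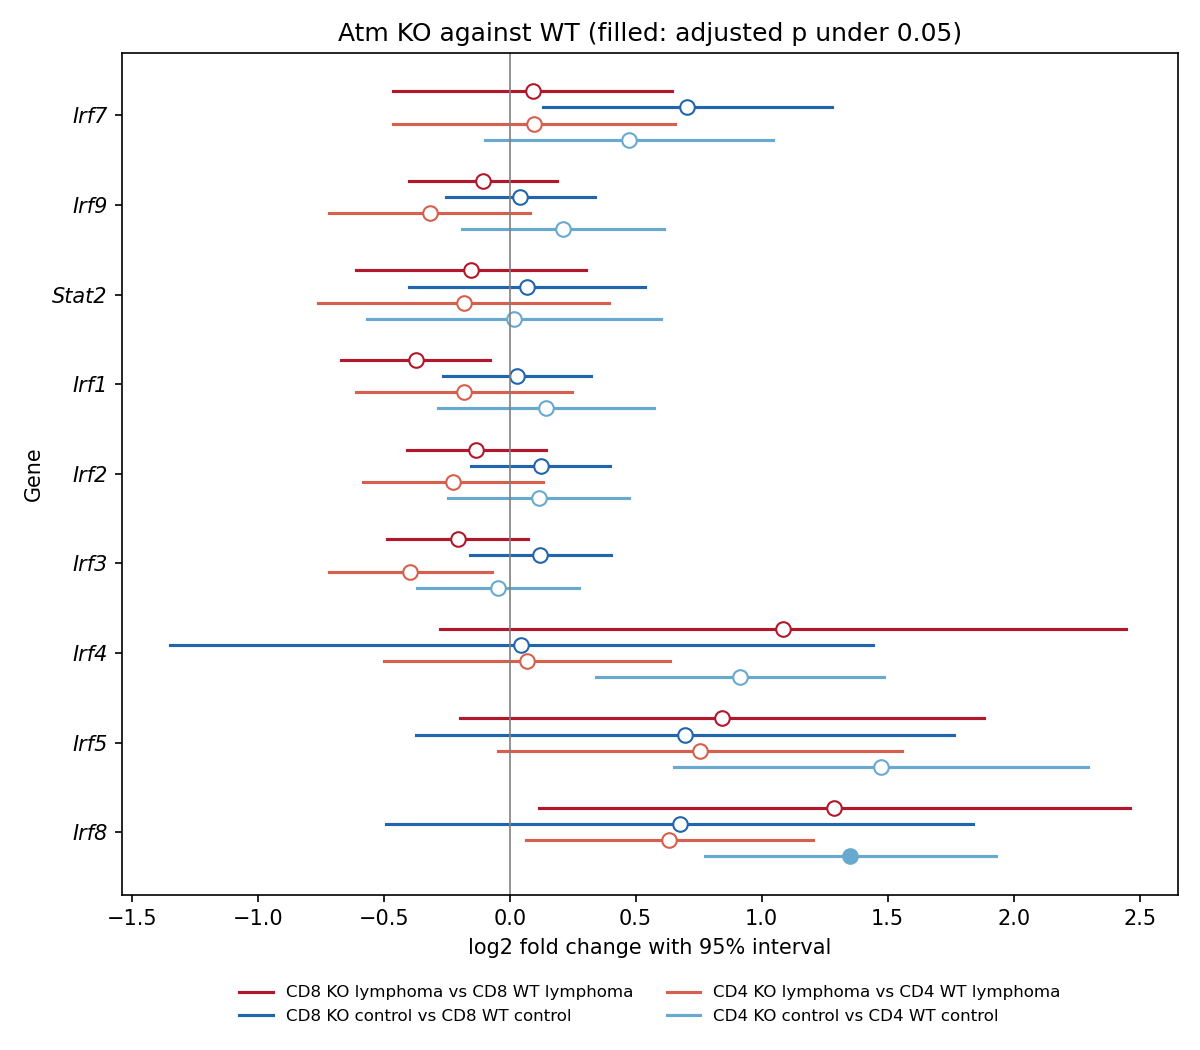
Log2 fold change of Atm KO against WT for each gene (horizontal axis, line at 0), with 3 libraries a group. The 95% intervals are from the edgeR fit of the 12 libraries of each co-receptor. The filled point passed an adjusted p of 0.05. Irf4, Irf5 and Irf8 have the widest intervals in the CD8 comparisons, and Irf8 in CD4 controls (1.35) is the 1 call.

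With lymphoma in both genotypes, 0 of the 9 passed between KO and WT in either co-receptor. In CD8 cells 0.245% of all genes passed, 2 members had an unadjusted p under 0.05 and DESeq2 called 0. In CD4 cells 0% of genes passed, again 2 members had an unadjusted p under 0.05, and DESeq2 called 0. Irf8 was at 285, 148 and 119 CPM in CD8 KO lymphoma libraries, against 72.7, 65.2 and 90.6 CPM in CD8 WT lymphoma libraries (1.29 ± 0.53, adjusted p = 0.239). In CD4 cells it was at 132, 97.5 and 151 CPM in KO and 67.6, 84.5 and 85.7 CPM in WT lymphoma libraries (0.63 ± 0.26, adjusted p = 0.421). Neither pair overlapped. In CD8 cells 2 members did not overlap (21.6% of all genes), Irf8 higher and Irf3 lower in KO, and the same 2 did not overlap in CD4 cells (12.9% of all genes). Monocyte and macrophage sums did not overlap, at 1967 to 2659 CPM in CD8 KO and 1016 to 1949 CPM in CD8 WT lymphoma libraries. In CD4 cells they were 1922 to 2797 CPM in KO and 1099 to 1762 CPM in WT. DESeq2 called 5 of these 16 higher in CD4 and 0 in CD8 cells. It called 4 of 16 T cell markers lower in CD8 and 1 in CD4 cells, and T cell sums overlapped. Dendritic cell sums were lower in CD8 KO, at 91.7 to 167 against 236 to 304 CPM. The part of these cells was not tested.

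Library 1 of the CD8 KO lymphoma group stood out for Irf4. Its level was 36.0 CPM there, against 9.90 and 6.40 CPM in the other libraries of the group. Its B cell marker sum was 1316 CPM, against 287 and 69.6 CPM. The sum of 5 plasma cell markers was 412 CPM in that library, against 60.3 and 56.0 CPM. With library 1 the Irf4 difference from CD8 WT lymphoma libraries was 1.09 ± 0.62, and without it -0.02 ± 0.46. Irf8 went to 0.81 ± 0.54 and Irf5 to 0.57 ± 0.52 without that library, beside 1.29 ± 0.53 and 0.84 ± 0.47 with it. In CD4 KO lymphoma libraries the B cell sums were 85.2 to 159 CPM, below those of CD4 KO controls (534 to 714 CPM). In those lymphoma libraries Irf5 was at 85.2 to 150.5 CPM and Irf8 at 97.5 to 151 CPM, and monocyte and macrophage sums were 1922 to 2797 CPM. The part of these cell types in these levels was not tested.

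**Figure D4:**
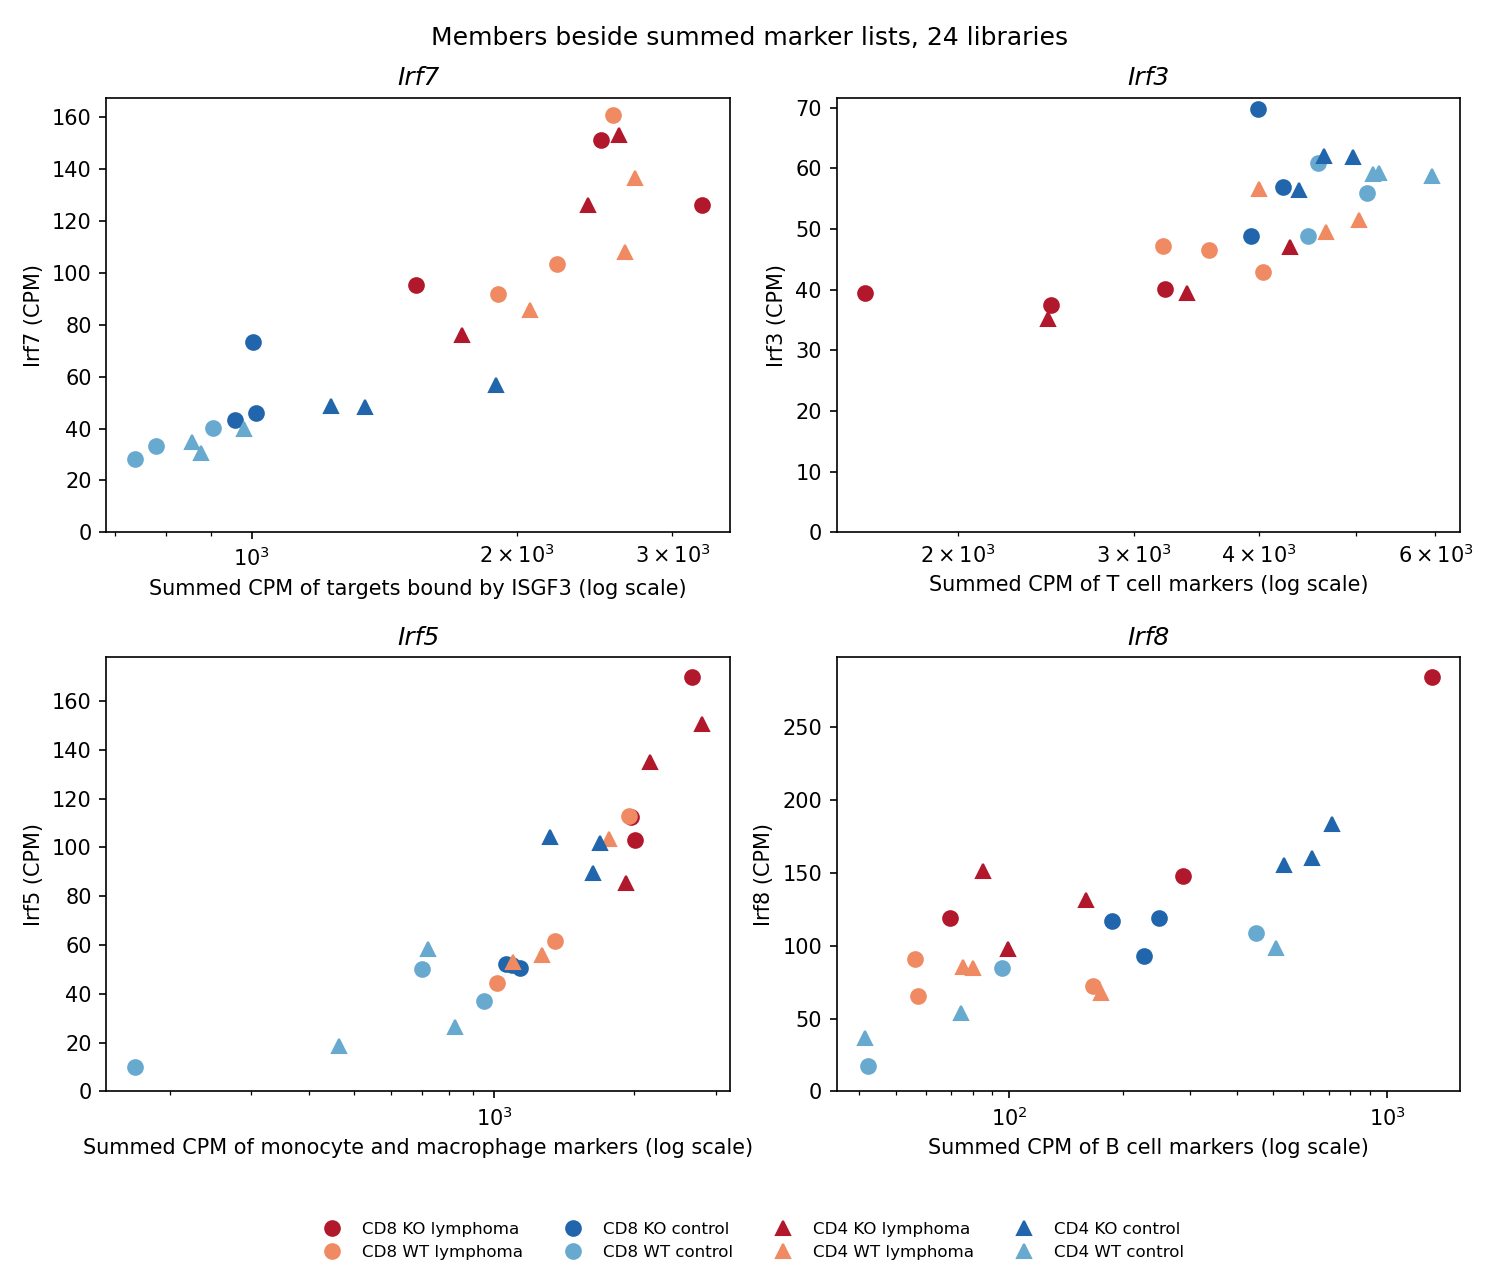
Levels in CPM (vertical axes) of Irf7 against the summed ISGF3 targets, Irf3 against T cell markers, Irf5 against monocyte and macrophage markers and Irf8 against B cell markers (horizontal axes, summed CPM, log scale); each point is 1 of 24 libraries, circles CD8 and triangles CD4, coloured by condition. CD8 KO lymphoma library 1 lies at the highest B cell sum, 1316 CPM, and the highest Irf8, 285 CPM, and at the lowest T cell sum, 1615 CPM.

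In the edgeR fits of 12 libraries, Irf4, Irf5 and Irf8 did not pass between lymphoma and control libraries. Irf5 was at 169.97, 112 and 103 CPM in CD8 KO lymphoma libraries, against 50.4, 52.4 and 51.6 CPM in CD8 KO controls, with no overlap (1.31 ± 0.48, adjusted p = 0.118, interval 0.26 to 2.37). DESeq2 called Irf5 higher in that comparison (adjusted p = 0.0267), as did edgeR with only the libraries compared (adjusted p = 0.0229). With 1 library left out at a time Irf5 did not pass there in edgeR (adjusted p = 0.128 to 0.288). In WT cells it was 1.17 ± 0.48 higher in CD8 (adjusted p = 0.242) and 1.01 ± 0.37 higher in CD4 libraries with lymphoma (adjusted p = 0.224), with overlap. Irf5 was at 150.5, 85.2 and 135 CPM in CD4 KO lymphoma libraries and 89.3, 104 and 102 CPM in controls (0.29 ± 0.36). Irf8 was at 132, 97.5 and 151 CPM in CD4 KO lymphoma libraries, all below the 156, 160.0 and 184 CPM of CD4 KO controls (-0.42 ± 0.26, adjusted p = 0.460). Its difference with lymphoma was 0.74 ± 0.52 in CD8 KO (adjusted p = 0.387), 0.12 ± 0.53 in CD8 WT (0.929) and 0.29 ± 0.26 in CD4 WT libraries (0.624), each with overlap. The Irf4 difference was 1.07 ± 0.62 in CD8 KO and 0.03 ± 0.63 in CD8 WT libraries with lymphoma, and neither passed. In CD4 cells Irf4 was 0.44 ± 0.27 higher in CD4 WT and -0.41 ± 0.26 in CD4 KO libraries with lymphoma, and the difference between these responses, -0.84 ± 0.37, had an unadjusted p of 0.0413 and did not pass. The interaction of genotype and lymphoma passed in 0 of 9 members in both co-receptors, as in 0% of all genes in edgeR. At an unadjusted p under 0.05 it held 1 member in CD4 and 0 in CD8 cells, and DESeq2 called 0.

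CD8 and CD4 cells were then compared within each condition, in a fit of all 24 libraries. No member passed in WT controls (3.48% of all genes passed), WT lymphoma (2.54%), KO controls (4.95%) or KO lymphoma (2.35%). DESeq2 called 1, Irf4 in KO controls. In KO controls Irf4 was at 9.78, 8.24 and 6.96 CPM in CD8 cells, against 27.4, 20.6 and 24.7 CPM in CD4 cells (-1.46 ± 0.50, adjusted p = 0.106). Irf5 was at 50.4, 52.4 and 51.6 CPM in CD8 cells, against 89.3, 104 and 102 CPM in CD4 cells (-0.85 ± 0.45, adjusted p = 0.352). The CD8 and CD4 libraries share their mice, and with the mouse pool as a block both fell below the CD4 level, Irf4 by -1.45 ± 0.39 (adjusted p = 0.0376) and Irf5 by -0.85 ± 0.18 (adjusted p = 0.0102). B cell markers summed to 186 to 249 CPM in CD8 and 534 to 714 CPM in CD4 KO controls. Monocyte and macrophage sums were 1062 to 1136 CPM in CD8 and 1315 to 1691 CPM in CD4 KO controls. Plasma cell sums were 42.2 to 53.6 CPM and 108 to 147 CPM. Dendritic cell sums went the other way, 140.3 to 172 CPM in CD8 and 83.5 to 104 CPM in CD4 KO controls. The part of these cells was not tested.

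Libraries of both co-receptors did not overlap for 5 members in KO controls, Irf4, Irf5, Irf8, Irf9 and Stat2, all lower in CD8 (33.6% of all genes, in either direction). In WT lymphoma these were Irf3, Irf4 and Irf9 (20.4%), in WT controls Irf9 and Stat2 (17.5%), and in KO lymphoma 0 (11.5%). Irf9 in controls was at 124, 119.6 and 121 CPM in CD8 WT cells, against 154, 125 and 140.5 CPM in CD4 WT cells (-0.17 ± 0.17). The lymphoma response of CD8 minus that of CD4 cells passed for 0 of 9 members in either genotype, as for 0% of all genes in edgeR. For Irf7 that difference was 0.19 ± 0.39 in WT (interval -0.63 to 1.01) and 0.01 ± 0.39 in KO cells (interval -0.80 to 0.82). At an unadjusted p under 0.05 it held 0 members in WT and 1 in KO cells (Irf4, 1.51 ± 0.69), and DESeq2 called 0.

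Ordered by group means, Irf7 had its 4 control groups lowest, from 33.9 ± 6.10 CPM (CD8 WT) to 54.2 ± 16.5 CPM (CD8 KO). Its 4 lymphoma groups lay at 110.0 ± 25.6 to 124 ± 28.1 CPM and overlapped one another. Irf9 ran from 122 ± 2.34 CPM in CD8 WT controls to 232 ± 16.6 CPM in CD4 WT lymphoma libraries, and Stat2 from 20.8 ± 1.78 to 42.3 ± 3.75 CPM between the same groups, with each neighbour overlapping the next. Irf3 was lowest in CD8 KO lymphoma libraries (39.0 ± 1.31 CPM) and highest in CD4 KO controls (60.1 ± 3.18 CPM). Over single libraries the highest value was 16.9 times the lowest for Irf5, 16.6 times for Irf8 and 7.73 times for Irf4, and 1.77 times for Irf1 and 1.61 times for Irf2.

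Likeness between genes was described by Pearson's r of log2 CPM over the 24 libraries, centred within each co-receptor. These libraries share 12 mouse pools and fall into 8 groups, so no p is given. Among the members, r was 0.82 for Irf9 and Stat2, 0.78 for Irf7 and Stat2, 0.87 for Irf5 and Irf8 and 0.74 for Irf1 and Irf2. Centred within the 8 groups it was 0.67, 0.76, 0.89 and 0.72. Other pairs changed more. Irf7 and Irf9 had r = 0.76 over the libraries and 0.46 within groups, and Irf5 and Irf7 had 0.60 and -0.08. Irf3 and Irf7 had r = -0.57 over the libraries and 0.65 within groups.

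Of 8239 candidate genes, those most like Irf7 were Ifi27l2a (0.97), Ifit3 (0.96) and Ifi44 (0.96), all on the ISGF3 target list. Stat2 was most like Parp14 (0.95), also on that list, AC151730.1 and Slfn5, and Irf9 most like AC151730.1 (0.92), Trim30a and Dtx3l. Irf5 was most like Lyn (0.98), Napsa and Gcnt1, and Irf8 most like Syk (0.97), H2-DMb1 and Unc93b1. Lyn and Syk encode kinases of B cell and myeloid receptors. Irf4 was most like Mif4gd (0.89), Pou2af1 and Blnk, of which Pou2af1 and Blnk have known roles in B cells. Irf1 was most like Gbp4 (0.88), Ssh2 and Kif1b, Irf2 most like Banp (0.90), Kpna4 and Prdm2, and Irf3 most like Acap1 (0.93) and Anxa6.

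Partners and targets of Irf4 in T cells, a list of 17, gave further detail of its setting. Maf, a factor of helper T cell subsets, rose in CD4 WT lymphoma libraries (0.94 ± 0.14) and in CD4 KO controls against WT controls (1.39 ± 0.15). Tbx21, the T-bet gene, was higher in KO than in WT controls of CD8 (1.57 ± 0.18) and CD4 cells (1.42 ± 0.23), and in CD8 KO than in CD8 WT lymphoma libraries (1.19 ± 0.18). Batf, which binds DNA beside Irf4, rose in CD8 WT lymphoma libraries (0.69 ± 0.12), and Nfatc2 fell in CD8 KO lymphoma libraries (-0.84 ± 0.18).

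Some gene models overlap. Irf9 shares its first bases with the end of Rnf31 on the same strand (33.8 CPM on average), and Irf8 lies within Gm20388 (9.55 CPM). On the opposite strand Irf5 meets Tnpo3 (264 CPM), Irf7 meets Phrf1 (55.4 CPM) and Irf3 meets Bcl2l12 (4.84 CPM). No source used here says whether the counting used strand, so reads of these pairs may be split between them.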

How the data were processed

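The deposited table holds estimated counts per gene and library, all whole numbers but for 2 genes, with no normalization named. The authors used Salmon 0.11.3, per the submitters' processing notes, which also list GRCh38, a human build, without saying what it was used for. Libraries were made with a Lexogen QuantSeq 3′ FWD kit from spleen T cells isolated with a kit, per the labels' protocols, so counts are tags near transcript ends and are not divided by length. Those 2 genes, which hold an f where a number should stand, were dropped, which left 34111, of which 11473 had no count. Replicate pairs differed by 4.66 to 86.9 times the sampling noise (chi-square per degree of freedom), so none was a duplicate. Where nothing says that pools are separate cohorts, p-values measure the spread between these libraries.

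CPM used plain library totals. Tests used edgeR 4.0.16 in R 4.3.3 (robust quasi-likelihood, trimmed-mean scaling with factors 0.903 to 1.12, filterByExpr at minimum count 10 and total 15), in fits of 12 CD4 libraries (12808 genes), 12 CD8 libraries (12650 genes) and all 24 (13232 genes). The code was tested on simulated data. Members and gene lists were chosen with earlier results of these data known. All 9 members were tested in each comparison, and those described are given with their values. From other lists the rule names up to 4 genes that passed with the smallest p (where none passed, up to 2 of the highest mean CPM), or the 3 of highest r for likeness. Exceptions are Il15, Ifng and the targets in tests that did not pass, chosen after their values were seen. Some genes that this rule names are not reported here. Of the lists, 9 of 9 members, 25 ISGF3 targets and 21 genes induced through Irf1 were tested, and Tmem173 stood for Sting1. Alternatives were DESeq2 1.42.0, its size factors in edgeR, no filter, only the libraries compared, all 24 in 1 fit, a replicate or mouse-pool block, and each library left out. List counts under these were added after seeing the data. Residuals of CD8 and CD4 libraries of the same mice correlated at -0.02 to 0.52 over 12 pairs, and the pairing comes from the labels. Gene positions are GENCODE M21 on GRCm38.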

Additional observations from a re-analysis of the deposited data

How the results depend on the processing

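Of 1872 member differences recomputed under an alternative, 1705 kept their direction and side of the threshold, 26 lost a call, 27 gained one, 0 called values turned sign and 114 uncalled ones did. The 5 calls held in 34 of 60 recomputations. DESeq2 size factors and no filter changed no count of members called. DESeq2 itself called 2 members in CD4 WT lymphoma against control (1 in edgeR), 2 in CD4 KO lymphoma (0), 3 in CD4 KO against WT controls (1), 3 in CD8 WT lymphoma (1) and 1 in CD8 against CD4 KO controls (0). Its calls over all genes were 678 against 216, 343 against 0, 789 against 257 and 799 against 180 in the first 4, and 1499 in CD8 KO lymphoma, where it added Irf5 to the members. With only the libraries compared, members called were 2 in CD4 WT lymphoma, 0 in CD4 KO against WT controls, 3 in CD8 WT lymphoma, 1 in CD8 KO lymphoma (Irf5, against 2) and 3 in CD8 against CD4 KO controls. All 24 libraries in 1 fit gave 2 in CD4 WT lymphoma and 0 in CD4 KO against WT controls. Leaving out 1 library gave 0 to 1 in CD4 WT lymphoma, 0 to 2 in CD4 KO lymphoma, 0 to 3 in CD4 KO against WT controls, 0 to 1 in CD8 WT lymphoma, 0 to 2 in CD8 KO lymphoma and 0 to 1 in CD8 KO against WT lymphoma. Same-numbered libraries of 1 co-receptor come from different mice, with residual correlations of -0.21 to 0.32 over 36 pairs. A replicate block gave 2 members in CD4 KO against WT controls and 0 in CD8 KO lymphoma (Irf3 and Irf7 at adjusted p = 0.0809, 25 genes called over the whole table). With the mouse pool as a block 2 passed in CD8 against CD4 KO controls, and 1186 genes against 655. It changed no other count of members. The cause of these shifts was not tested. With 3 libraries a group, members under about 10 CPM, such as Irf4 in CD8 cells, rest on as few as 32 counts a library.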
